A study of Mus musculus with 14 samples.

Results

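The genes described here encode metabotropic glutamate receptors of the mouse: Grm2, Grm3, Grm4, Grm5, Grm7 and Grm8. They were taken as the rows of the count table whose Ensembl identifiers map to these symbols, which gave 6 of the 48440 genes listed, and other receptor genes of the family are not analysed here. All 6 passed the filter on low counts, with 185 to 14338 reads per gene and library. Bulk total RNA had been sequenced from the cerebellum, hippocampus and cerebral cortex of C57BL/6 mice. The tested mice were homozygous for a CARIP knockout (CARIP-/-, KO) and the mice set against them were wild type (WT) of the same strain. Cerebellum had 3 KO and 3 WT libraries, hippocampus had 2 KO and 2 WT, and cortex, called cerebrum in the sample titles, had 2 KO and 2 WT. Neither the age and sex of the mice nor the design of the deleted allele is given in the sources used here. CARIP could not be matched to a gene symbol or synonym, so its own transcript was not read in these libraries.

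Metabotropic glutamate receptors are G protein-coupled receptors that respond to synaptic glutamate more slowly than the glutamate-gated ion channels. The receptor mGlu5, encoded by Grm5, belongs to group I, couples to Gq and phospholipase C, and sits mostly on postsynaptic membranes and on glia. The receptors mGlu2 and mGlu3 form group II, and mGlu4, mGlu7 and mGlu8 belong to group III. Both of these groups couple to Gi/o proteins, lower adenylyl cyclase activity and often act at presynaptic terminals to reduce transmitter release, while mGlu3 is also found on astrocytes. In the cerebellum mGlu4 is known from the parallel fibre terminals of granule cells, and in the forebrain mGlu5 is abundant in the hippocampus.

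Totals were 20.1 to 38.8 M reads per library (M, 1e6 reads). The regional markers followed the labels: the summed level of 5 cerebellar granule cell genes was 1798 to 2905 counts per 1e6 reads (CPM) in cerebellum, against 83.9 to 154.6 CPM in the other libraries, and that of 5 hippocampal excitatory neuron genes was 1883 to 2639 CPM in hippocampus, against 385.5 to 926.6 CPM elsewhere. The sum of 5 cortical excitatory neuron genes was 479 to 730.3 CPM in cortex and 405.5 to 455.7 CPM in hippocampus. A few libraries stood apart. The cerebellar libraries numbered 2, KO and WT alike, had higher sums of oligodendrocyte, thalamic and Golgi cell markers than the other 4 cerebellar libraries. The KO cortex library 2 had a striatal projection neuron sum of 452 CPM, against 61.0 to 73.5 CPM in the other cortex libraries, a thalamic sum of 381 CPM against 56.1 to 62.7 CPM, and a choroid plexus sum of 578 CPM against 12.03 to 30.1 CPM. Choroid plexus markers summed to 19.7 CPM in WT cerebellum library 1, against 623 to 1353 CPM in the other cerebellar libraries, and to 1121 CPM in WT hippocampus library 2, against 78.2 to 127 CPM in the other hippocampal ones.

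The start regions of Grm2 and Grm3 are shown first because the members of this group II pair differ in their regional pattern. Each line is the 250 bases before the start of the gene in the RefSeq annotation of GRCm38.p6, read 5′ to 3′ on the minus strand, from chr9:106656110-106656359 for Grm2 and chr5:9725353-9725602 for Grm3. Capitals mark 2 kinds of match found by search on both strands: the GC box GGGCGG, and the left and right parts of the RE1 element, TTCAGCACC and GGACAGC.
Grm2: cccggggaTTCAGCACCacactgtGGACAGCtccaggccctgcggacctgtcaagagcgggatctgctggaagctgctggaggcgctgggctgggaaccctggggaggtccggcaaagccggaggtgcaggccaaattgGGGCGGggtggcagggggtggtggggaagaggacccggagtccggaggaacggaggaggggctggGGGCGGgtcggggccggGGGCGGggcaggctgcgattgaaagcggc
Grm3: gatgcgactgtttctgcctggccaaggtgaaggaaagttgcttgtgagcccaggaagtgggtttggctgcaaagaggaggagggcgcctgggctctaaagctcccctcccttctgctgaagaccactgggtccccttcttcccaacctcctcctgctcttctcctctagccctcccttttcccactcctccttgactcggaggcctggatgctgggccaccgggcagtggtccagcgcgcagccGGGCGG
The Grm2 window held 3 GC boxes, 111, 46 and 29 bases before the start, and the Grm3 window held 1, placed 6 bases before it. A GC box occurred in 32.7% of the 32817 windows of this length in the RefSeq table. The Grm2 window also held both RE1 parts in order, starting 242 and 226 bases before the start and separated by 7 bases. The left part occurred in 0.302% of all windows and the right part in 5.28%, and the left part followed after 7 bases by the first 6 letters of the right part, GGACAG, in 0.00609%, which is 2 windows. At a spacing of 2 bases, searched for in the same way, the Grm2 window had 0 matches and 0.00914% of all windows, which is 3, had one. The RE1 letters were searched for after the Grm2 sequence had been seen, and no marked match overlaps another. Neither window held the cAMP response element TGACGTCA, present in 1.55% of windows, or the TATA box TATAAA, present in 12.4%. These matches describe the letters only. Windows for Grm7 and Grm8 were also read, with 1 GC box each, and 4 of the 6 receptors matched the table.

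Grm4 set the cerebellum apart. This gene (ENSMUSG00000063239.16, chr17:27422387-27521403, minus strand, GRCm38) had 493, 389 and 493 CPM in the KO cerebellar libraries 1, 2 and 3, and 633, 443 and 455 CPM in the WT ones. In hippocampus it had 15.6 and 22.8 CPM in KO libraries 1 and 2, and 13.1 and 11.6 CPM in WT libraries 2 and 3. In cortex it had 27.4 and 54.9 CPM in KO libraries 1 and 2, and 33.7 and 27.2 CPM in WT libraries 2 and 3. Every cerebellar library lay above every hippocampal and cortical one, and every cortical library above every hippocampal one. In the edgeR quasi-likelihood fit to all 14 libraries, Grm4 was 13.7-fold higher in cerebellum than in cortex (log2 fold change 3.77 ± 0.23 SE, Benjamini-Hochberg adjusted p 1.2e-07) and 31.4-fold higher in cerebellum than in hippocampus (4.97 ± 0.24, adjusted p 1.9e-08). It was 2.30-fold lower in hippocampus than in cortex (log2 -1.20 ± 0.22, adjusted p 0.0033), and without KO cortex library 2, which was the highest of the cortical libraries, the log2 difference was -0.91 ± 0.17 (adjusted p 0.0041). Of the granule cell genes, Gabra6 had 7.49 and 4.62 CPM in KO hippocampus libraries 1 and 2 and 8.47 CPM in WT library 2. WT hippocampus library 3 had 0 CPM of Gabra6. Cbln3 had 7.6, 5.1 and 7.0 CPM in the same order, against 0.315 CPM in WT library 3. Etv1, of the same list, had 84.7 CPM in WT library 3 and 83.1 CPM in WT library 2. The part of granule cells in the hippocampal Grm4 level was not tested. In bulk tissue, fewer cells of a type and less RNA per cell cannot be told apart, here or in the comparisons that follow.

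**Figure D1:**
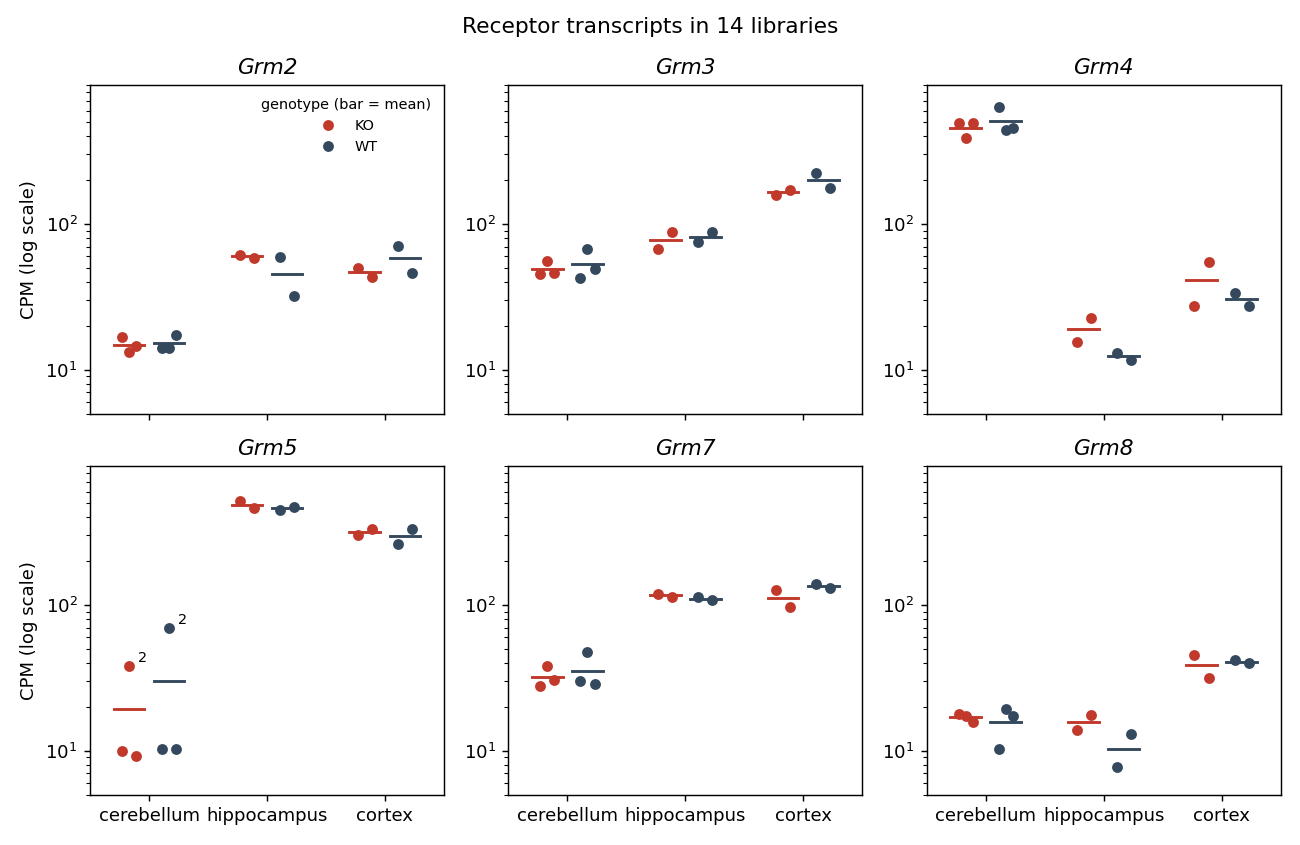
Level of each receptor gene in every library, in CPM on a log axis, with libraries grouped by region and KO to the left of WT. Points are libraries and horizontal bars group means; Grm4 is highest in the cerebellar libraries (389 to 633 CPM), and Grm5 in those libraries is near 10 CPM except for the 2 numbered 2, at 38.4 and 69.9 CPM.

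Grm5 had the opposite pattern, with its highest levels in hippocampus and its lowest in cerebellum. The gene (ENSMUSG00000049583.15, chr7:87584168-88134907, plus strand) had 10.04, 38.4 and 9.25 CPM in KO cerebellar libraries 1, 2 and 3, and 10.3, 69.9 and 10.3 CPM in the WT ones. In hippocampus it had 515 and 462 CPM in KO libraries 1 and 2, and 449 and 474 CPM in WT libraries 2 and 3. In cortex it had 302 and 332 CPM in KO libraries 1 and 2, and 261 and 331 CPM in WT libraries 2 and 3. Cerebellum lay below both forebrain regions in every library, and all 4 hippocampal libraries lay above all 4 cortical ones. Grm5 was 12.7-fold lower in cerebellum than in cortex (log2 -3.66 ± 0.62, adjusted p 0.00087) and 19.6-fold lower in cerebellum than in hippocampus (-4.29 ± 0.63, adjusted p 0.00035). The difference of hippocampus over cortex was 0.63 ± 0.65 and missed the threshold (adjusted p 0.62).

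The wide errors of Grm5 came with the 2 cerebellar libraries numbered 2. Outside them Grm5 averaged 9.95 ± 0.48 CPM in cerebellum (SD, n = 4), so KO library 2 and WT library 2 stood above the rest. Both also differed in markers of other cells. The oligodendrocyte sum was 3267 CPM in KO library 2 and 7073 CPM in WT library 2, against 1714 to 2569 CPM in the other 4 cerebellar libraries. The sum of 3 Golgi cell markers was 334 and 349.6 CPM in those libraries, against 129.6 to 176 CPM, and that of 5 thalamic markers 156.5 and 219 CPM, against 86.7 to 102 CPM. Cortical excitatory markers summed to 51.8 and 56.2 CPM, against 38.4 to 41.1 CPM, and granule cell markers to 1858 and 1798 CPM, against 2237 to 2905 CPM. Among single markers, Slc6a5, the glycine transporter of inhibitory neurons, had 130.2 and 151 CPM, against 30.1 to 33.1 CPM. Slc17a6, a vesicular glutamate transporter on the thalamic list, had 60.7 and 115 CPM, against 7.94 to 13.5 CPM. Most of the rise in the thalamic sum came from this gene. Sst, the somatostatin gene, had 10.04 and 21.2 CPM, against 0.618 to 1.10 CPM. Slc6a5 and Sst are on the Golgi cell list, so none of these genes is separate from the sums above. The part of these cells in the Grm5 level was not tested. With both libraries numbered 2 left out, Grm5 was 30.6-fold lower in cerebellum than in cortex (log2 -4.94 ± 0.11, adjusted p 7.1e-11) and 47.3-fold lower than in hippocampus (-5.57 ± 0.11, adjusted p 3.6e-11). The hippocampus over cortex difference kept its size at 0.63 ± 0.09, and its adjusted p was then 0.00068.

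**Figure D2:**
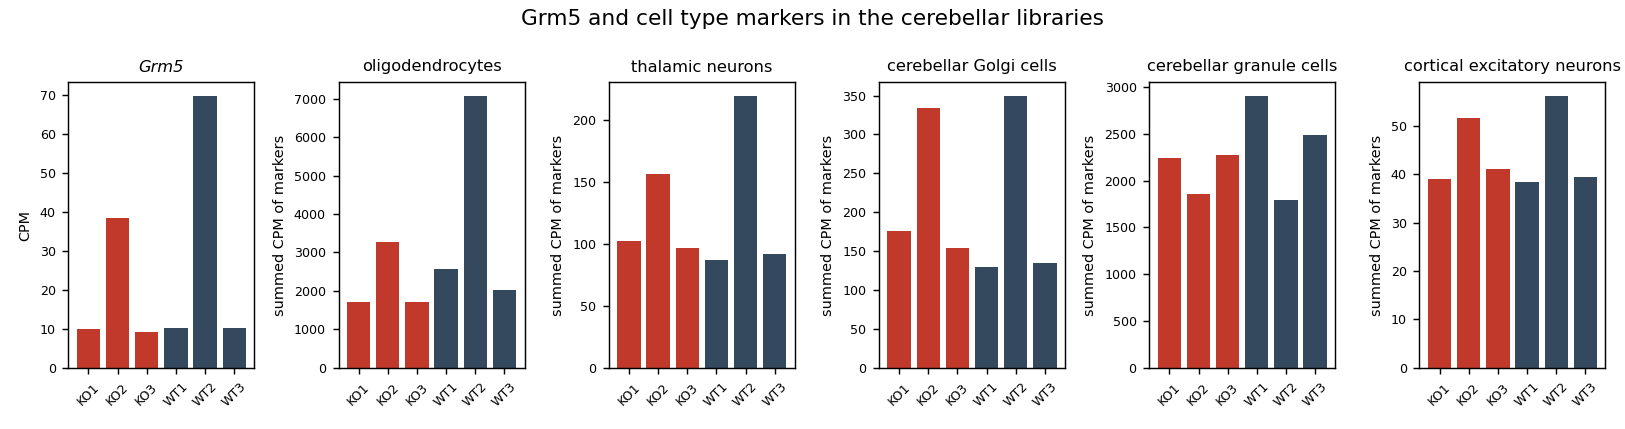
Grm5 in CPM and the summed CPM of 5 marker lists in the 6 cerebellar libraries, KO left of WT, with bars for single libraries. Both libraries numbered 2 are the highest for Grm5 (38.4 CPM in KO and 69.9 CPM in WT) and for the oligodendrocyte, thalamic, Golgi cell and cortical lists, and the lowest for the granule cell list.

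Of the group II receptors, Grm3 was highest in cortex. The gene (ENSMUSG00000003974.6, chr5:9485541-9725170, minus strand) had 45.4, 55.4 and 46.0 CPM in KO cerebellar libraries 1, 2 and 3, and 42.9, 67.1 and 49.2 CPM in the WT ones. In hippocampus it had 67.1 and 88.3 CPM in KO libraries 1 and 2, and 74.7 and 88.4 CPM in WT libraries 2 and 3. In cortex it had 157 and 172 CPM in KO libraries 1 and 2, and 223 and 178 CPM in WT libraries 2 and 3. Cortex lay above both other regions in every library, while the highest cerebellar library, WT library 2, reached the lowest hippocampal one. Grm3 was 3.56-fold lower in cerebellum than in cortex (log2 -1.83 ± 0.13, adjusted p 3e-07) and 2.28-fold lower in hippocampus than in cortex (-1.19 ± 0.15, adjusted p 0.00021). Cerebellum was 1.56-fold below hippocampus (log2 -0.64 ± 0.13, adjusted p 0.0016).

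Grm2, the other group II gene, overlapped between hippocampus and cortex and was lower in cerebellum. The gene (ENSMUSG00000023192.12, chr9:106643095-106656082, minus strand) had 16.9, 13.3 and 14.5 CPM in KO cerebellar libraries 1, 2 and 3, and 14.03, 14.1 and 17.3 CPM in the WT ones. In hippocampus it had 61.7 and 58.8 CPM in KO libraries 1 and 2, and 59.0 and 32.2 CPM in WT libraries 2 and 3. In cortex it had 50.3 and 43.0 CPM in KO libraries 1 and 2, and 70.1 and 46.3 CPM in WT libraries 2 and 3. Cerebellum was below both other regions in every library, and hippocampus and cortex overlapped. Grm2 was 3.47-fold lower in cerebellum than in cortex (log2 -1.79 ± 0.17, adjusted p 2.4e-06) and 3.49-fold lower in cerebellum than in hippocampus (-1.80 ± 0.17, adjusted p 2e-06). The hippocampus over cortex difference was 0.01 ± 0.18, with a 95% interval of -0.38 to 0.40 and an adjusted p of 0.99.

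The 2 group II genes therefore stood in different proportions. Per kilobase of exon, the Grm3 level was 1.74 to 4.40 times the Grm2 level in hippocampus, against 5.02 to 6.44 times in cortex, with no overlap between the libraries of those regions. In cerebellum it was 4.32 to 7.62 times the Grm2 level, a range that overlaps both. The ratios were not tested.

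Grm7 and Grm8, of group III, did not share the pattern of Grm4. Grm7 (ENSMUSG00000056755.13, chr6:110645581-111567230, plus strand) had 28.0, 38.2 and 30.7 CPM in KO cerebellar libraries 1, 2 and 3, and 30.2, 47.5 and 28.5 CPM in the WT ones. In hippocampus it had 119.7 and 114 CPM in KO libraries 1 and 2, and 113 and 108 CPM in WT libraries 2 and 3. In cortex it had 128 and 97.4 CPM in KO libraries 1 and 2, and 139 and 131 CPM in WT libraries 2 and 3. The forebrain regions overlapped and cerebellum lay below both. Grm7 was 3.65-fold lower in cerebellum than in cortex (log2 -1.87 ± 0.14, adjusted p 4.8e-07) and 3.36-fold lower in cerebellum than in hippocampus (-1.75 ± 0.14, adjusted p 7e-07). The hippocampus over cortex difference was -0.12 ± 0.16, with a 95% interval of -0.46 to 0.22 and an adjusted p of 0.72.

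Grm8 was highest in cortex. The gene (ENSMUSG00000024211.15, chr6:27275119-28135178, minus strand) had 17.8, 17.5 and 15.8 CPM in KO cerebellar libraries 1, 2 and 3, and 10.3, 19.4 and 17.4 CPM in the WT ones. In hippocampus it had 13.8 and 17.5 CPM in KO libraries 1 and 2, and 7.76 and 12.9 CPM in WT libraries 2 and 3. In cortex it had 45.5 and 31.8 CPM in KO libraries 1 and 2, and 41.7 and 39.7 CPM in WT libraries 2 and 3. Cortex lay above every other library, and cerebellum and hippocampus overlapped. Grm8 was 2.42-fold lower in cerebellum than in cortex (log2 -1.28 ± 0.19, adjusted p 0.00011) and 3.11-fold lower in hippocampus than in cortex (-1.64 ± 0.21, adjusted p 0.00026). The cerebellum over hippocampus difference of 0.36 ± 0.19 missed the threshold (adjusted p 0.14). It passed when WT cerebellum library 1 was left out (0.48, adjusted p 0.032) and when WT hippocampus library 3 was left out (0.59, adjusted p 0.041).

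Counted together, 6 of 6 receptors differed between cerebellum and cortex, 1 higher and 5 lower, where 48.4% of the 24680 genes tested were called, 23% higher and 25.3% lower. Between cerebellum and hippocampus 5 of 6 were called, 1 higher and 4 lower, against 47.3% of all genes (22.6% higher and 24.7% lower). Between hippocampus and cortex 3 of 6 were called, all lower, against 12% of all genes (5.49% higher and 6.48% lower). The median log2 difference of the 6 was -1.81 for cerebellum over cortex, -1.20 for cerebellum over hippocampus and -0.65 for hippocampus over cortex, beside medians of 0.01, 0.02 and -0.002 over all genes. Libraries of the compared regions did not overlap for 6 of 6 receptors between cerebellum and cortex (34.2% of all genes), for 4 of 6 between cerebellum and hippocampus (42.5%) and for 4 of 6 between cortex and hippocampus (18.8%).

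**Figure D3:**
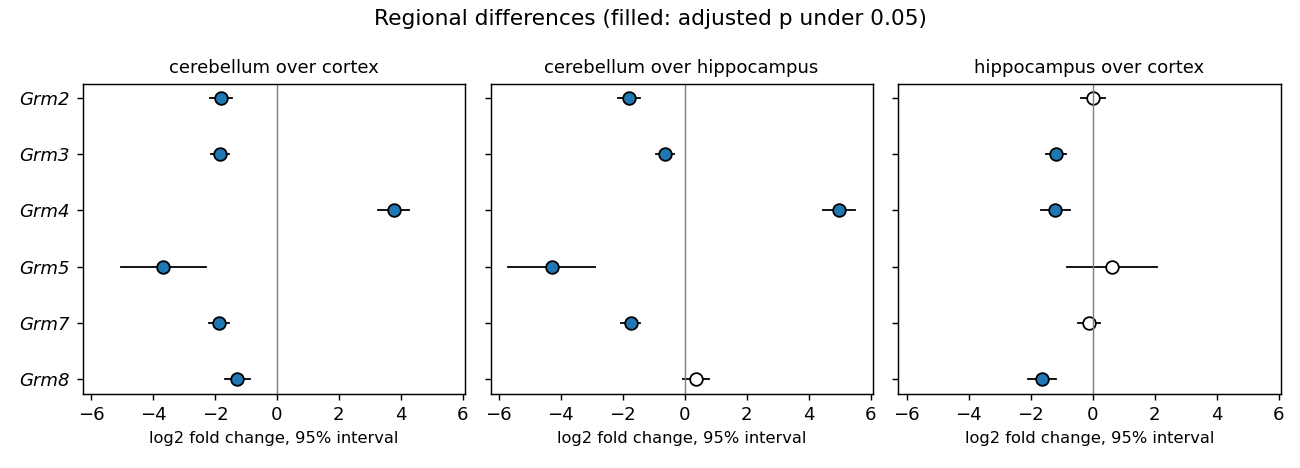
Regional log2 fold changes of the 6 genes with 95% intervals, both genotypes weighted equally; filled points have an adjusted p under 0.05. Grm4 lies to the right in both cerebellar panels (3.77 and 4.97), and the widest intervals are those of Grm5.

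Levels of different genes were set side by side per kilobase of exon and 1e6 reads (RPKM, computed here over the union of annotated exons). The 6 genes together had a median of 108 RPKM over the cerebellar libraries, 106 RPKM over the hippocampal ones and 129 RPKM over the cortical ones, and a different gene led the sum in each region. In cerebellum Grm4 was the first in all 6 libraries, with 73.0 ± 6.57% of the sum (SD, n = 6), followed by Grm3 with 15.3 ± 3.12% and Grm7 with 5.23 ± 1.24%. Below these, Grm2 had 3.07 ± 0.34 RPKM, Grm5 2.41 ± 2.43 RPKM and Grm8 1.65 ± 0.32 RPKM (SD, n = 6). Grm5 came last in the 4 cerebellar libraries other than those numbered 2, and ahead of Grm2 and Grm8 in those 2, so the order at the low end did not hold across libraries.

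In hippocampus the order was Grm5, Grm3, Grm7, Grm2, Grm4 and Grm8 in all 4 libraries. Grm5 made up 43.5 ± 2.37% of the sum, Grm3 24.5 ± 3.38%, Grm7 18.1 ± 0.61% and Grm2 10.1 ± 2.54% (SD, n = 4). Grm4 and Grm8 were low, at 1.94 to 3.81 and 0.784 to 1.77 RPKM. In cortex Grm3 came first in all 4 libraries with 45.3 ± 3.26%, ahead of Grm5 with 22.9 ± 3.74% and Grm7 with 16.0 ± 2.06% (SD, n = 4). Of the lower 3, Grm2 lay above Grm8 in every cortex library, at 8.78 to 14.3 RPKM and 3.21 to 4.60 RPKM, while Grm4, at 4.55 to 9.18 RPKM, overlapped the ranges of both. With the longest transcript in place of the exon union as the length, the same gene came first in every library and the share of Grm3 in cortex was 38.6%. The order of Grm3 and Grm7 in hippocampus was then not the same in all libraries, with shares of 20.2% and 20.9%.

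By coupling class, the Gq-coupled Grm5 held 0.772 to 5.88% of the summed receptor level in cerebellum, 40.6 to 46.0% in hippocampus and 17.4 to 25.5% in cortex. The group II genes held 13.04 to 21.5%, 31.7 to 36.9% and 50.6 to 59.7% in the same order of regions. The group III genes held 72.6 to 86.2%, 20.9 to 22.5% and 22.9 to 25.3%. Within group III, the Grm7 level was 11.0 to 24.5 times that of Grm8 in hippocampus, against 4.71 to 5.63 times in cortex, and 2.64 to 4.92 times in cerebellum. The exon union of Grm8 is 2.06 times as long as its longest transcript, and that of Grm7 1.40 times. The size of the Grm7 to Grm8 ratio therefore depends on the length used, while the order of the libraries does not. The ranges of cortex and cerebellum overlapped, and the ratio was not tested.

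**Figure D4:**
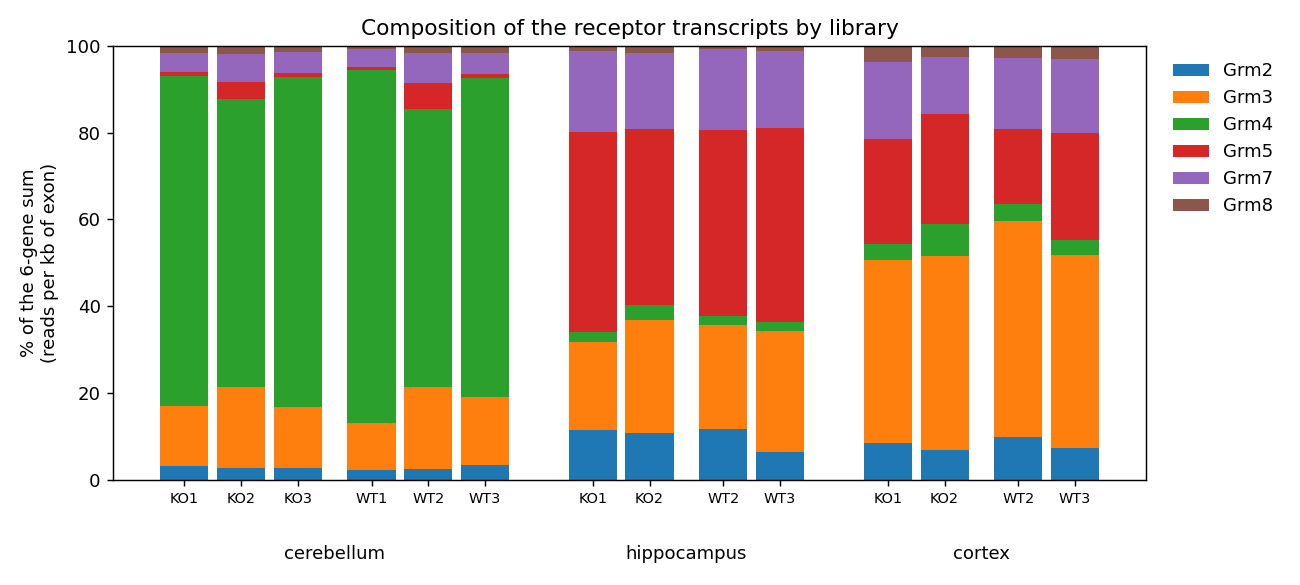
Share of each gene in the summed reads per kilobase of the 6 receptors, as stacked bars adding to 100% in each library, KO left of WT within a region. Grm4 fills most of each cerebellar bar (mean 73.0%), Grm5 is the first in hippocampus (43.5%) and Grm3 in cortex (45.3%).

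The second question was whether the loss of CARIP changed these genes. No receptor passed the threshold in any region: 0 of 6 in cerebellum, 0 of 6 in hippocampus and 0 of 6 in cortex. edgeR called 0% of the 24680 genes in each of these comparisons. Under an unadjusted p of 0.05 it placed 3.18% of all genes in cerebellum, 1.91% in hippocampus and 7.39% in cortex, and again 0 of the 6 receptors. DESeq2 called 2 genes in cerebellum, 2 in hippocampus and 50 in cortex, none of them a receptor. Without KO cortex library 1, which leaves the KO library that stood apart as the only one of its group, edgeR called 3005 genes in cortex, and 0 of the 6 receptors. With these few libraries the intervals, rather than the missing calls, say what size of change the data allow.

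In cerebellum, KO and WT libraries overlapped for all 6 genes, where 9.3% of all genes did not overlap. Grm4 averaged 459 ± 60.1 CPM in KO and 510.3 ± 106 CPM in WT cerebellum (SD, n = 3 each), a log2 difference of -0.15 ± 0.24 SE (95% interval -0.68 to 0.37). Its highest library, WT library 1, was also the one nearly without choroid plexus markers. That library had the highest granule cell sum as well, at 2905 CPM, against 1798 to 2487 CPM in the other cerebellar libraries. Its Purkinje cell sum was also the highest, at 1790 CPM, against 1007 to 1537 CPM. Without WT library 1 the Grm4 difference was 0.03. The part of these cells in the Grm4 level was not tested. Grm5 averaged 19.2 ± 16.6 CPM in KO and 30.1 ± 34.4 CPM in WT (SD, n = 3 each), and its log2 difference of -0.64 ± 0.77 had an interval of -2.37 to 1.08. When WT library 2 was left out the difference was 0.92, and when KO library 2 was left out it was -1.65. With libraries paired by number it was -0.40 ± 0.16 (p 0.031, adjusted p 0.45 in edgeR), with KO below WT in all 3 pairs. With both libraries numbered 2 left out it was -0.09 ± 0.14. The other 4 genes had differences of -0.13 to 0.12, with the widest interval, that of Grm8, from -0.40 to 0.63. The Grm8 difference was -0.11 ± 0.21 without WT library 1 and 0.28 ± 0.29 without both libraries numbered 2. The summed astrocyte markers also separated the genotypes in cerebellum, at 1212 to 1246 CPM in KO and 1425 to 1545 CPM in WT. So did the summed unipolar brush cell markers, at 181.5 to 195.1 CPM in KO and 238.6 to 294.3 CPM in WT. The part of both cell types in the receptor levels was not tested.

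In hippocampus, 5 of 6 receptors had positive differences and none passed. Grm4 averaged 19.2 ± 5.10 CPM in KO and 12.3 ± 1.05 CPM in WT hippocampus (SD, n = 2 each), a log2 difference of 0.64 ± 0.31 with an interval of -0.04 to 1.31 (p 0.062, adjusted p 1 in edgeR). Fitted on the hippocampal libraries only, the difference was 0.64 ± 0.19 (p 0.0061, adjusted p 0.49). In the fit to all libraries it was 0.34 without KO library 2 and 0.88 without KO library 1. Grm8 averaged 15.6 ± 2.62 CPM in KO and 10.4 ± 3.67 CPM in WT (SD, n = 2 each), a difference of 0.59 ± 0.30 (interval -0.05 to 1.24, p 0.067, adjusted p 1 in edgeR). Its lowest library, at 7.76 CPM, was WT library 2, which carried the high choroid plexus sum. Without that library the difference was 0.27 ± 0.33, and without WT library 3 it was 1.007. The part of the choroid plexus cells in the Grm8 level was not tested. KO libraries lay above WT libraries for Grm4, Grm7 and Grm8, so 3 of 6 genes were higher without overlap, where 18.1% of all genes were. Over all genes only this direction, the one these receptors took, was counted. Several marker lists also separated the genotypes in hippocampus, in both directions. The astrocyte sum was 1009 and 1053 CPM in KO libraries 1 and 2, against 1201 and 1266 CPM in WT libraries 2 and 3. The oligodendrocyte sum was 2146 and 2961 CPM in KO, against 4108 and 3551 CPM in WT. The striatal and choroid plexus sums were also lower in KO. The GABAergic interneuron sum was lower by a small margin, at 470.5 and 487.8 CPM in KO, against 488.9 and 490.3 CPM in WT. Higher in KO was the granule cell sum, at 134.1 to 154.6 CPM, against 101.6 to 123.7 CPM in WT. So were the Purkinje cell sum (114.1 to 143.2 CPM, against 68.96 to 92.07 CPM) and the thalamic sum (79.06 to 93.03 CPM, against 63.49 to 71.57 CPM). Most of the granule cell sum was Etv1 (107.5 and 97.3 CPM in KO, 83.1 and 84.7 CPM in WT). Cbln1 was also higher in KO, while Gabra6, Cbln3 and Neurod1 overlapped between the genotypes. Most of the Purkinje cell sum was Calb1 (127.2 and 101.1 CPM in KO, 74.4 and 65.5 CPM in WT), while Pcp2, Car8 and Ppp1r17 overlapped. The part of the cells of these lists in the receptor levels was not tested. Grm7, at 114 to 119.7 CPM in KO and 108 to 113 CPM in WT hippocampus, differed by 0.08 ± 0.22. Grm5 differed by 0.08 ± 0.91 in the fit to all libraries and by 0.09 ± 0.09 in the fit to the hippocampal ones alone. Grm2 differed by 0.40 ± 0.26 and rested on WT library 3, the low one at 32.2 CPM, without which the difference was 0.03. Without WT library 2 it was 0.91 ± 0.26 (p 0.0043, adjusted p 1 in edgeR).

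In cortex, KO libraries lay below WT libraries for Grm3 and Grm7, so 2 of 6 genes were lower without overlap, against 13.3% of all genes. Here too, only the direction that these receptors took was counted over all genes. Grm3 averaged 165 ± 10.7 CPM in KO and 200.2 ± 32.1 CPM in WT cortex (SD, n = 2 each), a log2 difference of -0.28 ± 0.21 with an interval of -0.73 to 0.17. Grm7 averaged 112 ± 21.4 CPM in KO and 135 ± 5.66 CPM in WT (SD, n = 2 each), a difference of -0.27 ± 0.22 with an interval of -0.75 to 0.22. Neither passed the test. Without KO library 2, the cortex library that stood apart, the differences were -0.36 ± 0.26 for Grm3 and -0.09 ± 0.26 for Grm7, and without WT library 2 that of Grm3 was -0.10. Grm2 differed by -0.32 ± 0.26, Grm8 by -0.07 ± 0.29 and Grm5 by 0.10 ± 0.91, or by 0.09 ± 0.21 in a fit to the cortex libraries alone. Without KO library 2 the differences were -0.22 ± 0.32 for Grm2, 0.16 ± 0.33 for Grm8 and 0.02 ± 1.25 for Grm5. Some marker sums also separated the genotypes in cortex, all higher in KO. The striatal, thalamic and choroid plexus sums did so, mostly through KO library 2. The hippocampal excitatory sum was 399.9 and 739.7 CPM in KO, against 385.5 and 392.1 CPM in WT. The endothelial sum was 38.88 and 47.62 CPM, against 38.28 and 34.79 CPM. The part of these cells in the receptor levels was not tested.

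Grm4 in cortex rested on 1 library. Its difference was 0.44 ± 0.30 (interval -0.22 to 1.09), with 54.9 CPM in KO library 2 and 27.4 CPM in KO library 1, against 27.2 to 33.7 CPM in WT cortex. KO library 2 stood apart in striatal, thalamic and choroid plexus markers. The dopamine receptor gene Drd2, a striatal marker, had 44.3 CPM there and 0.422 to 1.27 CPM in the other cortex libraries, and Calb2, on the unipolar brush cell list, had 70.5 CPM, against 4.37 to 6.63 CPM. Without KO library 2 the Grm4 difference was -0.16 ± 0.27. The part of those cells in the Grm4 level was not tested.

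**Figure D5:**
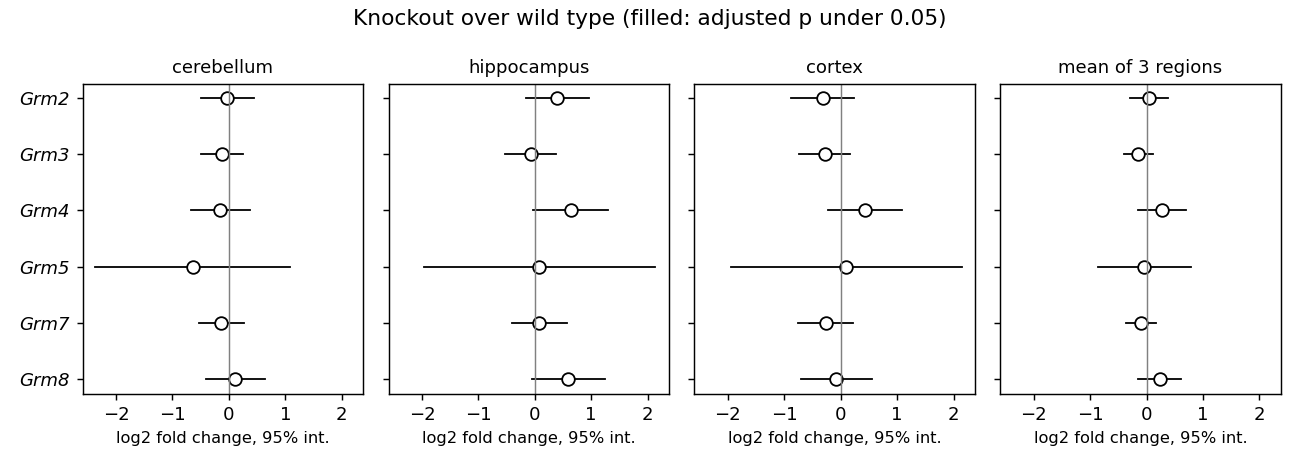
Log2 fold change of KO over WT for the 6 genes in each region and for the mean of the 3 regions, with 95% intervals; filled points would have an adjusted p under 0.05. No point is filled, and all intervals span 0, those of Grm5 most widely in the regional panels.

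Averaged over the 3 regions by limma voom with the genotype number as a block, the KO effects ran from -0.14 ± 0.12 for Grm3 to 0.27 ± 0.19 for Grm4, and 0 of 6 passed, where 0% of all genes did and 4.4% had an unadjusted p under 0.05. The 95% intervals were -0.40 to 0.11 for Grm3 and -0.15 to 0.69 for Grm4, whose mean effect was 0.10 ± 0.16 without KO cortex library 2. The tests of whether the KO effect differed between regions also called 0 of 6 receptors in each of the 3 contrasts, and 0% of all genes. The smallest of their unadjusted p-values for a receptor was 0.066, for Grm4, whose KO effect in cerebellum minus that in hippocampus was -0.79 ± 0.39 (adjusted p 1 in edgeR).

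Genes that act with these receptors were read from a list of 54, all of which were tested: 11 of the Gq arm, 16 of the Gi/o arm, 16 scaffolds and partners, and 11 for ligand supply and clearance. Between cerebellum and cortex 14 were higher and 31 lower, where 23% of all genes were higher and 25.3% lower, and the median log2 difference was -0.46, against 0.01 over all genes. The scaffolds and partners weighed to the low side, with 2 higher and 12 lower of 16, while the Gq arm was split with 4 higher and 5 lower of 11. Homer3, a Homer protein that binds the group I receptor tail, had 67.2 ± 13.97 CPM in cerebellum and 3.54 ± 0.48 CPM in cortex (SD, n = 6 and 4), a log2 difference of 4.24 ± 0.20 SE (adjusted p 7.6e-09). Slc1a6, the glutamate transporter of Purkinje cells, rose by 3.38, Rgs8, a regulator of G protein signalling, by 2.97 and Plcb4, a phospholipase C of the Gq arm, by 1.69. Plcb1, a phospholipase C isoform prominent in forebrain neurons, differed by -1.65 ± 0.08, with 119.8 ± 9.99 CPM in cerebellum and 375 ± 30.5 CPM in cortex (SD, n = 6 and 4). The scaffold Grasp, also called tamalin, which binds group I receptors, differed by -3.32, the postsynaptic scaffold Shank1 by -1.60 and the protein kinase C gene Prkca by -1.61.

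Between cerebellum and hippocampus 12 of the 54 were higher and 29 lower, where 22.6% of all genes were higher and 24.7% lower (median -0.46, against 0.02 over all genes). Plcb4, at 458 ± 49.1 CPM in cerebellum and 42.9 ± 5.50 CPM in hippocampus (SD, n = 6 and 4), differed by 3.43 ± 0.13 SE (adjusted p 1.2e-09). Slc1a6 differed by 3.44 and Rgs8 by 2.77. On the low side were Grasp (-3.68), Homer2 (-2.57), Prkca (-2.56) and Plcb1 (-1.57). Between hippocampus and cortex 10 were higher and 7 lower, where 5.49% of all genes were higher and 6.48% lower (median 0.01, against -0.002 over all genes). There were 10 to 11 calls, in place of 17, without WT cortex library 3, KO hippocampus library 1 or 2, or WT hippocampus library 2, and 7 with wild-type libraries only. Homer3 was again among the genes that rose, with 26.2 ± 1.62 CPM in hippocampus and 3.54 ± 0.48 CPM in cortex (SD, n = 4 each) and a log2 difference of 2.88 ± 0.19 SE (adjusted p 2.1e-06). Prkca rose by 0.95 and Homer2 by 0.71. Plcb4 differed by -1.73, the arrestin gene Arrb1 by -0.62 and the receptor kinase gene Grk2 by -0.50.

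In the KO comparisons the counts were 0 of 54 in cerebellum, hippocampus and cortex and in their mean, and 7 of 54 in cortex when KO library 1 was left out, where 11.7% of the 25788 genes then tested were called. In cortex the smallest unadjusted p was that of Folh1, which encodes the peptidase that releases glutamate from N-acetylaspartylglutamate, a peptide agonist of mGlu3. Folh1 had 9.13 and 15.9 CPM in KO cortex libraries 1 and 2, and 5.60 and 6.395 CPM in WT libraries 2 and 3, a log2 difference of 1.07 ± 0.31 (p 0.0044, adjusted p 0.66 in edgeR). Its mean over the regions was 0.66 ± 0.19 (adjusted p 0.89 in limma). Grasp had 30.5 and 25.2 CPM in KO cortex and 36.0 and 45.1 CPM in WT cortex (log2 -0.54 ± 0.18, adjusted p 0.66), and its difference in cerebellum was -0.46 ± 0.16 (adjusted p 1). Its mean was -0.38 ± 0.12 (adjusted p 0.90 in limma). In cerebellum the next was the receptor kinase gene Grk2 (-0.22 ± 0.11), and in hippocampus the smallest p-values were those of Plcb4 (0.32 ± 0.18) and Cyth2, which encodes a cytohesin exchange factor (-0.18 ± 0.11).

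The tests of regional KO effects called 0 of the 54 as well. Without KO cortex library 1 they called 3 for cerebellum minus cortex, beside 6.01% of all genes, and 1 for cortex minus hippocampus, beside 2.95%. The list genes with the smallest p-values there were Gnai2 (-0.62 ± 0.27) and Adcy5 (-1.12 ± 0.49) for cerebellum minus cortex, Adcy8 (-0.43 ± 0.24) and Plcb4 (-0.35 ± 0.23) for cerebellum minus hippocampus, and Gnai2 (0.56 ± 0.30) and Rgs8 (0.62 ± 0.34) for cortex minus hippocampus. Adcy5, the adenylyl cyclase abundant in striatum, had its highest cortical level in KO library 2, at 409 CPM, against 140.2 to 155 CPM in the other cortex libraries.

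The genes most like each receptor were those with the highest Pearson correlation of log2 CPM over the 14 libraries among 13061 protein-coding genes, and since the libraries fall into regions these values mostly repeat the regional order. For Grm4 they were Alpk2 (0.997), Ank1 (0.996) and Lurap1 (0.992), and for Grm5 they were Neto1 (0.998), Elfn2 (0.997) and Dok6 (0.997). For Grm3 they were Arhgap32 (0.991), Clstn1 (0.989) and Rab11fip4 (0.989), and for Grm2 they were Rasal2 (0.975), Pitpnm2 (0.974) and Pkig (0.966). For Grm7 they were Kctd16 (0.996), Syt16 (0.995) and Kcnt2 (0.994), and for Grm8 they were Map3k9 (0.969), Lrrc32 (0.966) and Cit (0.963). Among the receptors themselves, Grm5 and Grm7 were the most alike (0.97), and Grm4 ran against Grm7 (-0.95), Grm5 (-0.94) and Grm2 (-0.92). Neto1, an auxiliary protein of kainate receptors, averaged 5.91 CPM in cerebellum, 146 CPM in hippocampus and 105.5 CPM in cortex, which is the order of Grm5.

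Whether reads were counted by strand is not given in the sources used here, and 2 receptors have antisense neighbours on shared exons. Gm28111, opposite Grm2, had 0 to 31 reads per library, at most 2.2% of the Grm2 reads. Gm20387, opposite Grm7, had 18 to 124 reads, at most 3.8% of the Grm7 reads.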

How the data were processed

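The authors deposited 1 table of raw read counts per gene with a column for each of the 14 libraries. The submitters' processing notes name Trim Galore 0.6.4, cutadapt 2.10, STAR 2.7.3a and featureCounts 2.0.1 as tools and GRCm38.p6 (mm10) as the genome build. They do not name an annotation release or a strand setting. Symbols and coordinates came from GENCODE M21, which matched 99.2% of the identifiers without their version suffix.

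All 24680 genes kept by filterByExpr on the 6 groups were fitted at once with edgeR 4.0.16 (R 4.3.3): TMM scaling, robust quasi-likelihood test, 14 libraries, 8 residual degrees of freedom and a biological coefficient of variation of 24.7%. The mean KO effect used limma 3.58.1 (voom, statmod 1.5.0) with genotype and number as a block (correlation 0.096). P-values were adjusted by Benjamini and Hochberg over all genes tested, with a threshold of 0.05. CPM are counts per 1e6 reads of the TMM-scaled totals. The steps were tested on simulated data. Alternatives were DESeq2 1.42.0, other scaling, filter and lengths, leaving out libraries, and blocks.

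The receptors, the lists and the rule for named genes were chosen with earlier results of these data known. That rule names all 6 receptors, up to 4 list genes per direction that pass (otherwise the 2 with the smallest p), and the 3 genes most like each receptor. A few list genes that the rule takes are not reported here. Drd2, Calb2, Slc6a5, Slc17a6, Sst, Gabra6, Cbln1, Cbln3, Etv1, Neurod1, Calb1, Pcp2, Car8 and Ppp1r17 were named after their values were seen. A comparison of protein sequences that had been planned was not made.

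Nothing says that the libraries came from separate mice, so p-values measure the spread between libraries, which may be technical. Cerebellar deviations from the group mean correlated between KO and WT libraries of the same number at 0.29, 0.78 and 0.38 over 15943 genes for numbers 1, 2 and 3, all over the bound of 0.1 for treating numbers as pairs, but KO 1 with WT 3 (0.35) and KO 3 with WT 1 (0.49) were as high. Hippocampus and cortex share only the number 2 between genotypes, so no paired fit was made there.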

Additional observations from a re-analysis of the deposited data

How the results depend on the processing

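The number of receptors called was the same under every alternative run, the replicate block included, except that it was 6 in place of 5 for cerebellum over hippocampus without WT cerebellum library 1 or WT hippocampus library 3, and 4 in place of 3 for hippocampus over cortex without both cerebellar libraries numbered 2. With libraries paired by number in cerebellum, 0 of 6 receptors and 58 of all genes were called, and with genotype and number as a block in the regional contrasts 6, 5 and 3 of 6. Each receptor had at least 185 reads in each library. Leaving out single libraries turned the sign of some KO effects, and the cause was not tested. The log2 ranges were, in cerebellum, -0.12 to 0.081 for Grm2, -0.25 to 0.087 for Grm3, -0.25 to 0.03 for Grm4, -1.65 to 0.92 for Grm5, -0.27 to 0.14 for Grm7 and -0.11 to 0.30 for Grm8. In hippocampus they were -0.28 to 0.11 for Grm3 and -0.002 to 0.16 for Grm5, and in cortex -0.59 to 0.017 for Grm2, -0.16 to 0.85 for Grm4, -0.053 to 0.28 for Grm5 and -0.35 to 0.16 for Grm8. The sign did not turn for Grm2 (0.03 to 0.91), Grm4 (0.34 to 0.88), Grm7 (0.045 to 0.12) and Grm8 (0.27 to 1.007) in hippocampus, or for Grm3 (-0.44 to -0.10) and Grm7 (-0.47 to -0.09) in cortex. For the mean of the regions they were -0.10 to 0.19 for Grm2 and -0.29 to 0.28 for Grm5, and for Grm2 in hippocampus over cortex -0.24 to 0.19. Without both cerebellar libraries numbered 2, a choice made after seeing the data, the cerebellar KO differences of Grm2 and Grm7 were 0.002 and 0.001, and the mean of Grm5 was 0.032. Grm2 in hippocampus over cortex was -0.005 with limma voom and -0.35 with wild-type libraries only. The cortical share of Grm3 was 38.6% with the longest transcript. Over all genes, the regional calls in wild-type libraries only were 7567, 7604 and 1368, against 11941, 11676 and 2956 in all libraries, for cerebellum over cortex, cerebellum over hippocampus and hippocampus over cortex. The last was 1541 without KO hippocampus library 1 and 1721 without WT hippocampus library 2. Of 0 calls in the KO comparisons, the fit to hippocampal libraries alone gave 4, the tests without a filter gave 1 in cortex and 3 for the mean, and the fits without KO cortex library 1 gave 3005 in cortex, 78 for the mean, and 1551 and 760 for the cortical effect against cerebellum and hippocampus.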
